A study of Oryctolagus cuniculus with 3 samples.

Results

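Intronic long non-coding transcripts were taken as the members of the deposited long non-coding table with the assembler's class code i, which marks a transcript that lies inside an intron of an annotated gene. They numbered 3815 of 15335 transcripts, at 3752 of 13113 loci, and the files list each of them as an assembled transcript outside the annotation. The RNA came from cumulus-oocyte complexes of the ovary of female IRA rabbits. The study's 150 animals were 35 days old at the start and were kept for 4 weeks in control air (CG, NH3 below 3 ppm), at 10 ppm NH3 (LAC) or at 30 ppm NH3 (HAC). A single rRNA-depleted total RNA library was sequenced per group, and the labels do not say how many animals it pools, so no difference below has a replicate check and no p-value is given.

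The cumulus-oocyte complex is the oocyte with the granulosa-derived cumulus cells that surround it and pass metabolites and signals to it. RNA that is made from within introns is of several kinds: independent non-coding genes on either strand, stable products of host transcripts, and pieces of unspliced precursor. Depletion of rRNA keeps such RNA in the library, whereas poly(A) selection would lose much of it. An assembled intronic transcript with 1 exon and no strand cannot be assigned to one of these kinds from a table of levels.

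The libraries differed in ways that touch every comparison. Spliced reads made up 22.01% of valid reads in the CG file, 16.23% in the LAC file and 19.89% in the HAC file. Reads that mapped to several places made up 25.41%, 26.99% and 26.07%, and how they were shared among the transcripts below is not known here. The coding gene table that accompanies HAC is identical to that of LAC, so host gene levels exist for CG and LAC only, and the valid-read totals of LAC and HAC are exchanged between 2 sections of their files. The 6 oocyte markers summed to 2429 CPM (gene counts scaled to library size) in CG and 483 in LAC, with 6 of 6 lower in LAC (ZP3, ZP2, GDF9, BMP15, DDX4 and DAZL). The 6 granulosa and cumulus rows (5 genes, with INHA in 2 rows) summed to 13144 and 13543 CPM. Fibroblast markers summed to 23.4 and 70.2 CPM, macrophage markers to 4.77 and 8.00 and endothelial markers to 1.87 and 3.39. Smooth muscle markers summed to 48.1 and 40.3 CPM, with 1 of 3 lower in LAC (MYH11, 47.2 and 36.3 CPM). In such bulk samples, fewer cells of a type and less RNA per cell cannot be told apart, and the part of cell make-up or of splicing in the results below was not tested.

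Intronic transcripts were mostly short, unspliced and without a listed strand. Their median length was 851 bases, with quartiles of 345.5 and 2388.5 bases and a range of 201 to 34380 bases. A single exon was listed for 3051 (80.0%), 2 exons for 706, 3 for 51, 4 for 6 and 5 for 1. No strand was given for 2346 (61.5%), against 71.2% of the 5754 intergenic transcripts. Coding potential was low by the filter of the table: the highest CPC score was 0.49 and the highest CNCI score was 0. Of the 3815, 762 were shorter than the library's insert of 300 bases, and FPKM, which is scaled to length and depth, is unreliable at such lengths. Another long non-coding locus overlapped 610 of them (16.0%), and for 272 that locus lay on the opposite strand, so that their reads may be divided between 2 entries.

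By position, 3698 of the 3815 lay within the span of a RefSeq gene of the same table, taken as the host, and 117 did not. The hosts were 1575 genes, 1454 of them protein-coding. Most hosts held 1 intronic transcript (986 genes), whereas 60 genes held 10 or more and together carried 1052 transcripts (28.4% of those with a host). Hosts were long genes: their median span was 112397 bases, against 14797 for the 23045 RefSeq rows. Among 20008 coding genes, 0.359% of those under 10 kb held an intronic transcript, and 4.11% of those from 10 to 50 kb did. The share was 13.2% from 50 to 100 kb, 22.3% from 100 to 200 kb, 37.5% from 200 to 500 kb and 56.7% at 500 kb or more. Expression of the gene went with it too. Among coding genes of 200 kb or more, 22.1% of those under 0.5 CPM were hosts, 33.6% from 0.5 to 5 CPM, 40.5% from 5 to 50 CPM and 58.0% at 50 CPM or more. Span and level are properties of the same assembly. Whether the gradient with span goes beyond the larger number of intron bases in long genes was not tested.

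Within their hosts the transcripts lay towards the 5′ end. In the direction of host transcription, 1104 (29.9%) had their midpoint in the first of 5 equal parts of the host's span, 903 in the next, then 737 and 629, and 325 (8.79%) in the last. The gradient was shallower in hosts with 1 transcript, where the counts were 238, 220, 204, 203 and 121. Of those with a host, 488 were listed on the host's strand, 957 on the opposite strand and 2253 without a strand. The 2253 without a strand all had 1 exon. Of the 488 on the host's strand, 335 had 2 or more exons, and of the 957 on the opposite strand 416 did.

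**Figure D1:**
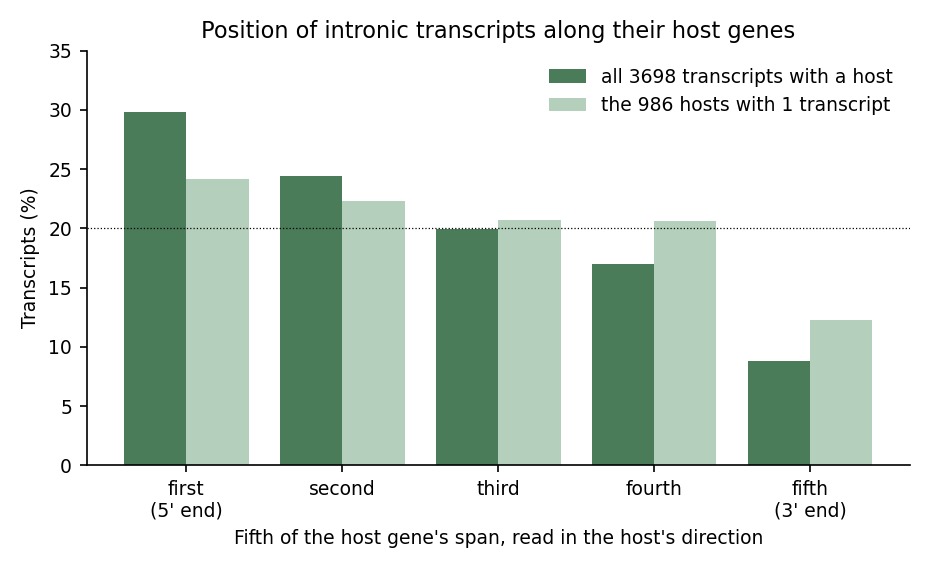
Percent of intronic transcripts (y axis) whose midpoint lies in each of 5 equal parts of the host gene's span, counted from the host's 5′ end (x axis), for all 3698 transcripts with a host (dark bars) and for the 986 hosts that hold 1 transcript (pale bars). The dotted line is an even share. The first part holds 29.9% of the transcripts and the last 8.79%.

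Levels were low and narrowly spread. The median FPKM was 1.33 for CG, 1.88 for LAC and 1.45 for HAC, and 2332 transcripts (61.1%) lay between 0.5 and 5 FPKM in all 3 libraries. At least 1 FPKM was reached by 2395 in CG, 3138 in LAC and 2590 in HAC, and by 1736 (45.5%) in all 3. Listed at 0 were 133 in CG, 117 in LAC and 119 in HAC, 8 of them in all 3 libraries. Intronic loci held 2.77% of the gene table's counts in CG and 4.23% in LAC, or 2.52% and 3.93% without the most abundant locus.

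The table begins at a certain coverage, and this decides how far the libraries can be compared. Coverage is the mean depth of reads over a transcript, and 3757 of the 3815 (98.5%) had a coverage of 8 or more in at least 1 library. Only 18 had their highest coverage between 7 and 8, whereas 191 had it between 8 and 9 and 723 between 9 and 10. Neither the labels nor the file headers state what set this floor. A coverage of 8 was reached in only 1 library by 1663 transcripts (43.6%): in LAC alone by 1028, in HAC alone by 375 and in CG alone by 260. It was reached in all 3 libraries by 1268. A transcript that is in the table through LAC alone had to be higher there, so counts of higher and lower transcripts over the whole class describe the table and are no support for a difference between the groups. Each comparison is therefore given a second time over the transcripts that reached a coverage of 8 in the library outside the comparison, a choice made after the floor was seen that uses neither of the libraries compared.

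**Figure D2:**
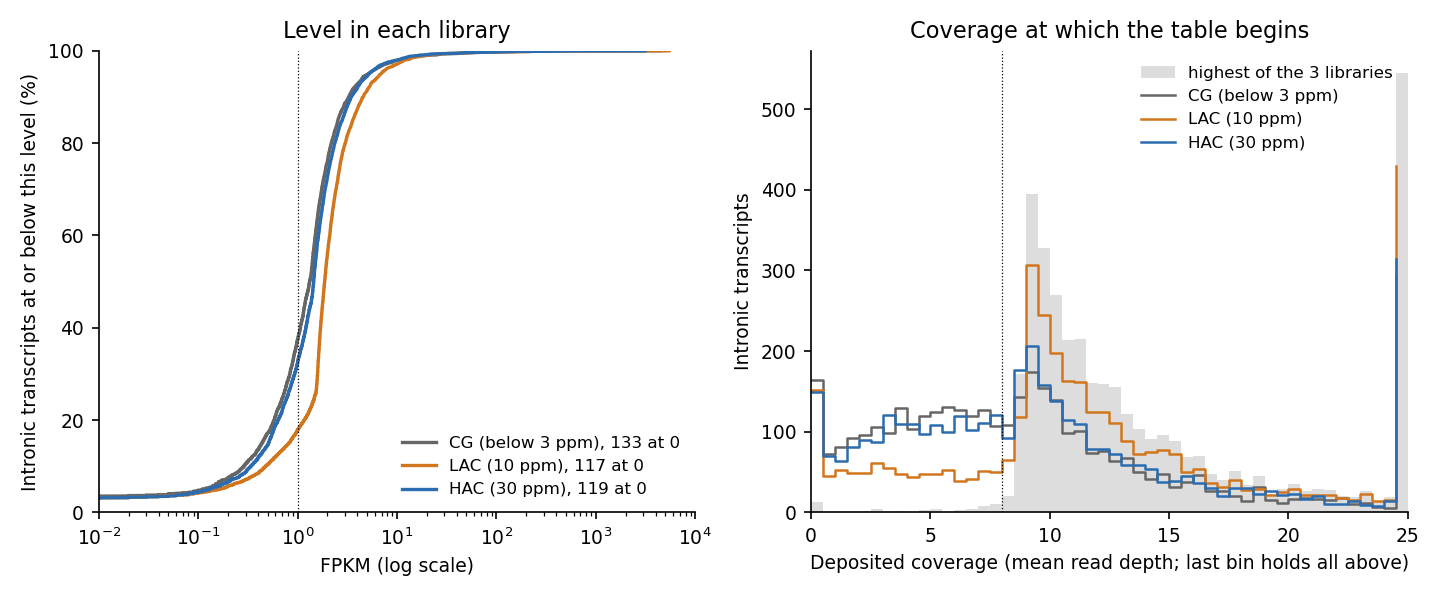
Left, cumulative percent of the 3815 intronic transcripts (y axis) at or below each FPKM (x axis, log scale) in each library; right, number of intronic transcripts (y axis) by deposited coverage in bins of 0.5 (x axis), for each library (lines) and for the highest of the 3 (grey), with a dotted line at 8. The LAC curve rises steeply just above 1 FPKM, where its median is 1.88, and hardly any transcript has a highest coverage below 8.

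Differences are given as log2(FPKM + 1), a scale that understates changes of low transcripts, and a transcript is counted as higher or lower when the difference is at least 1 and the higher library has at least 1 FPKM. Between LAC and CG, 528 intronic transcripts were higher in LAC and 194 lower, of 3514 compared (15.0% and 5.52%), with a median difference of 0.46. Over all 10259 long non-coding transcripts compared, 13.6% were higher, 12.4% were lower and the median was 0.32, so the lower share of intronic transcripts lay under the background and the higher share near it. The split rests on the scale. After median-of-ratios scaling over all long non-coding transcripts, the counts were 251 higher and 275 lower at a median of 0.16, against 7.5% and 16.5% and a median of 0.02 for the whole table. The factors rest on transcripts above 0 in every library, among them ones in the table through LAC alone. The coverage floor thus applies to the factors too, and how far it sets them was not tested.

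Among the intronic transcripts that reached a coverage of 8 in HAC, 155 were higher in LAC than in CG and 106 lower, of 1918 (8.08% and 5.53%). The background over the 5529 long non-coding transcripts chosen the same way was 6.91% higher and 14.8% lower. Intergenic transcripts chosen the same way gave 151 higher and 474 lower, of 2492 (6.06% and 19.0%). With median-of-ratios scaling the intronic counts were 52 and 149, against a background of 3.3% and 20%, and the intergenic counts were 78 and 650. The median difference of the intronic transcripts was 0.36 as deposited and 0.05 after scaling, and that of the intergenic ones was 0 and -0.35. For all long non-coding transcripts chosen the same way it was 0.17 and -0.17, so neither scale centred them. Intronic transcripts thus had fewer lower calls than intergenic ones under both scales, and the excess of higher over lower calls turned when the scale changed. Coding genes have counts for CG and LAC. By log2(CPM + 1), 2.17% were higher and 12.7% lower of the 13021 with a mean of at least 0.5 CPM. These shares differ from those above in unit, scaling, minimum level and choice of members.

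Between HAC and CG fewer transcripts passed the size rule. Of 3056 intronic transcripts compared, 197 were higher in HAC and 140 lower (6.45% and 4.58%), against 10.1% and 7.06% of all long non-coding transcripts, with a median difference of 0.09. After median-of-ratios scaling the counts were 200 and 167, against 9.88% and 7.9%. Among the transcripts that reached a coverage of 8 in LAC, 55 were higher and 55 lower, of 2212 (2.49% each), against 4.77% and 4.69% of all long non-coding transcripts chosen the same way. Scaling turned the 2 counts into 54 and 65, against 4.53% and 5.24%.

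Between HAC and LAC, 249 intronic transcripts were higher in HAC and 464 lower, of 3597 (6.92% and 12.9%), against 16.8% and 12.6% of all long non-coding transcripts, with a median of -0.38. Under median-of-ratios scaling the split turned to 320 higher and 247 lower, against 19.9% and 7.19%, with a median of -0.12. Among the transcripts that reached a coverage of 8 in CG, 114 were higher in HAC and 121 lower, of 1833 (6.22% and 6.6%), against 17.8% and 6.92% of all long non-coding transcripts. With scaling these were 141 and 44, against 20.9% and 3.39%. These 3 comparisons share libraries, so their differences are not independent of one another.

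Of the 1206 intronic transcripts whose libraries spanned at least 1 on the log2 scale, LAC was the highest library for 692 (57.4%), HAC for 300 (24.9%) and CG for 214 (17.7%). Over the 4678 long non-coding transcripts with such a span LAC was highest in 39.7% and HAC in 38.3%. After median-of-ratios scaling the intronic counts were 364 (36.6%), 343 (34.5%) and 287 (28.9%) of 994, against 23.7%, 45.3% and 31.0% of all long non-coding transcripts. The same floor applies to these counts.

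A few transcripts made up much of the class. The 10 with the highest mean level held 46.0% (CG), 55.8% (LAC) and 50.7% (HAC) of the summed intronic FPKM, and 15 transcripts reached 100 FPKM in any library. MSTRG.13918.1, 503 bases with no strand in an intron of MYLK (myosin light chain kinase; OryCun2.0, sequence NC_013682.1, 95467857 to 95468359), reached 4504 (CG), 5458 (LAC) and 3125 (HAC) FPKM. It was high in all 3 libraries, lowest in HAC, and its LAC minus CG difference of 0.28 became -0.17 after median-of-ratios scaling. Its host MYLK had 7.40 CPM in CG and 8.06 in LAC, a unit that is not scaled to length as FPKM is. The entry rested on about 96778 reads in CG and 105048 in LAC, against 586 and 547 counts of MYLK. How many of its reads also map elsewhere in the genome was not tested.

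MSTRG.23419.1, 243 bases in an intron of ARHGAP22, a GTPase-activating protein for Rac (NW_003159445.1, 478798 to 479040), reached 581 (CG), 5371 (LAC) and 2936 (HAC) FPKM. Both ammonia libraries lay above the control, with a ratio to CG of 9.25 (95% exact binomial interval 9.01 to 9.50) in LAC and 5.06 (4.92 to 5.20) in HAC. These intervals, and those below, cover counting error only and take reads as independent. ARHGAP22 itself was near the limit of detection, at 1.65 CPM in CG and 0.80 in LAC. The transcript is shorter than the library's insert, and how many of its reads also map elsewhere was not tested.

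MSTRG.21686.1 (821 bases) lay on the host's strand in ATG16L1, a core protein of autophagosome formation, and had 340, 630 and 488 FPKM in CG, LAC and HAC. MSTRG.4833.1 (1244 bases, no strand) in LARP4, an RNA-binding protein that binds poly(A) tails, had 270, 422 and 339 FPKM. Both were lowest in CG and highest in LAC as deposited, and for both the order of LAC and HAC turned after median-of-ratios scaling. MSTRG.17918.1 (300 bases) in CHD3, a chromatin remodeller of the NuRD complex, reached 110 (CG), 226 (LAC) and 258 (HAC) FPKM, with a HAC to CG ratio of 2.35 (2.20 to 2.50). CHD3 itself had 110 CPM in CG and 109 in LAC.

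MSTRG.2027.1 (209 bases) in MTMR9, an inactive member of the myotubularin phosphatases, reached 99.6 (CG), 393 (LAC) and 112 (HAC) FPKM. LAC stood apart, with a LAC to CG ratio of 3.94 (3.66 to 4.26), while the host had 23.0 and 25.7 CPM. MSTRG.1333.1 (213 bases) on the opposite strand in IPO7, a nuclear import receptor, had 93.7, 225 and 96.7 FPKM, and MSTRG.11453.1 (233 bases) in HIVEP2, a zinc-finger transcription factor, had 157, 220 and 153. As deposited these 3 shared the order of a high LAC library above a close pair of CG and HAC. For the HIVEP2 transcript the LAC minus CG difference of 0.49 became 0.04 after median-of-ratios scaling, whereas MTMR9's stayed at 1.52 and IPO7's at 0.80. All 3 are shorter than the insert.

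The opposite order was seen in 2 of the 10. MSTRG.13100.1 (1187 bases, NC_013681.1, 137998187 to 137999373), on the opposite strand in WASF2, which encodes an activator of actin branching, reached 160 (CG), 41.8 (LAC) and 389 (HAC) FPKM. The CG to LAC ratio was 3.84 (3.65 to 4.04) and the HAC to LAC ratio 9.31 (8.88 to 9.77), at 85.9 and 80.5 CPM of the host in CG and LAC. MSTRG.25777.1 (569 bases), for which no host was found by position, had 172, 25.3 and 143 FPKM. The 2 transcripts were lowest in LAC, and no other transcript of the 10 was.

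**Figure D3:**
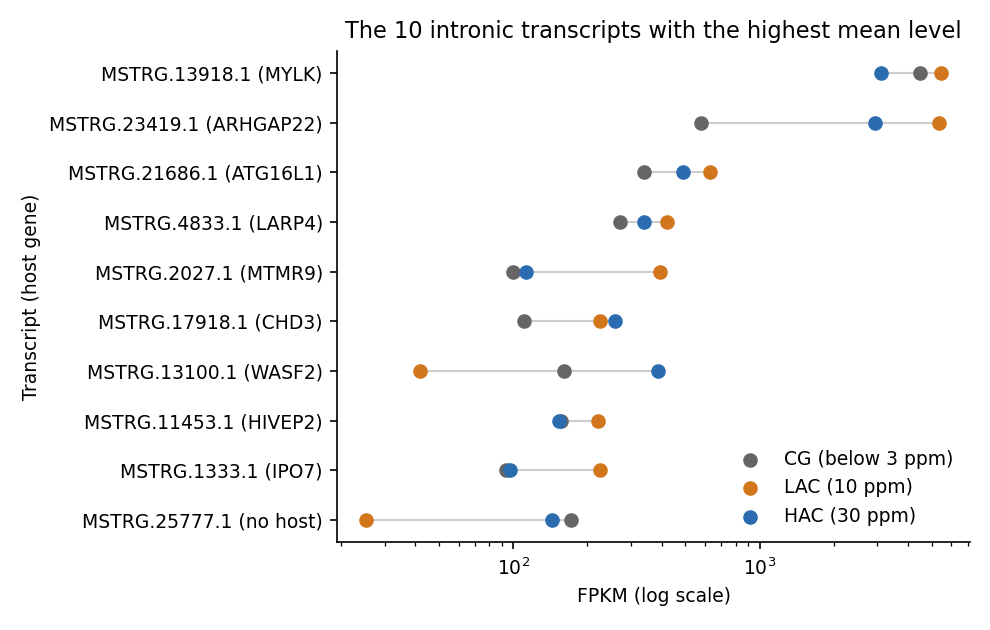
FPKM (x axis, log scale) in CG, LAC and HAC of the 10 intronic transcripts with the highest mean level (y axis, with the host gene), 1 point per library. MSTRG.23419.1 in ARHGAP22 spans 581 to 5371 FPKM, and MSTRG.13100.1 in WASF2 is lowest in LAC at 41.8 and highest in HAC at 389.

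The largest differences included transcripts listed at 0 in some library, for which no fold is given. MSTRG.9381.1 (251 bases) in TSHZ1, a zinc-finger transcription factor, had 16.7 FPKM in the control, from about 179 reads, and none in LAC or HAC, where it is listed at 0. Its host went from 25.5 CPM in CG to 2.58 in LAC. MSTRG.12377.1 (466 bases, no host) reached 49.2 (CG), 0.36 (LAC) and 18.3 (HAC) FPKM, from about 980, 6 and 352 reads, a CG to LAC ratio of 137 (66.1 to 395). MSTRG.17120.1 in OTUD7A, a deubiquitinase, had 27.7, 2.23 and 3.59 FPKM, with its host below 1 CPM in CG and LAC. MSTRG.20669.1 in LOC100342241 had 42.1, 7.72 and 4.09 FPKM. The control library was the highest for each of the 4.

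MSTRG.13207.1 (341 bases) in COL6A6, a collagen VI chain, reached 0.06 (CG), 15.3 (LAC) and 10.0 (HAC) FPKM, from about 1, 199 and 141 reads, while its host went from 8.63 to 4.27 CPM. It had a single read in CG, so its LAC to CG ratio of 254 has an interval of 42.0 to 9403. MSTRG.10881.1 in ANKRD66 had 1.56, 10.9 and 3.28 FPKM, and MSTRG.24883.1, with no host, had 0.03, 8.10 and 1.89. MSTRG.6815.2 (8914 bases, 2 exons) on the opposite strand in FMNL2, a formin, had 9.41 FPKM in LAC, with 0 listed for CG and HAC. LAC was the highest library for all 4 of these. In SKA1 and SKA2, which encode subunits of a kinetochore complex, MSTRG.9281.1 had 0.84, 5.32 and 0.11 FPKM and MSTRG.18312.1 had 5.45, 5.93 and 0 in CG, LAC and HAC. The lowest library was HAC for both, but the SKA1 transcript rests on about 7, 41 and 1 reads, with a HAC to CG ratio of 0.13 (0.0033 to 1.16), and the SKA2 entry is overlapped by a locus on the opposite strand. MSTRG.26118.1 in LOC100358325 had 3.02, 1.99 and 14.3 FPKM, highest in HAC. MSTRG.22112.1 (21.7, 21.9 and 3.33 FPKM) and MSTRG.17165.1 (4.32, 6.0 and 0.70), both with no host, were lowest in HAC, and the first of them is likewise overlapped on the opposite strand. MSTRG.659.1 in NTM, a neuronal cell adhesion protein, had 5.25 and 6.27 FPKM in CG and HAC and was listed at 0 in LAC.

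Part of these extreme values lay in pairs of overlapping entries. MSTRG.5518.1 (1207 bases, on the host's strand) and MSTRG.5517.1 (1205 bases, opposite strand) cover nearly the same bases of an intron of CHD9, a chromatin remodeller (NC_013673.1, 9552837 to 9554043 and 9552831 to 9554035). The first had 27.2, 1.57 and 0 FPKM in CG, LAC and HAC and the second 0, 1.58 and 19.97, so that the strand entry with the signal turned between CG and HAC. The second isoform of the first locus, MSTRG.5518.2, had 6.49 FPKM in the control and 0 in the ammonia libraries. In ERBB4, MSTRG.7413.1 had 9.06 FPKM in the control against 0 in both ammonia libraries, while the overlapping MSTRG.7412.1 on the other strand had 5.22, 22.2 and 12 FPKM. RALYL's MSTRG.4102.2, also overlapped on the other strand, had 1.89, 7.77 and 8.34. How the reads of such pairs were divided is not known here, and a difference of a single entry is uncertain.

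The host with the most intronic transcripts was FHIT, a diadenosine triphosphate hydrolase gene that in humans lies at a fragile site (sequence NC_013677.1, 26530902 to 28112592, minus strand). It held 76, which cover 15.3% of its 1581691 bases. Their median was 1.51 FPKM for CG (0.20 to 2.45), 1.84 in LAC (0.30 to 3.30) and 1.27 in HAC (0.21 to 2.09), so the 3 ranges overlapped almost wholly. Not one differed by the size rule between LAC and CG, and 54 of 76 were above 0, a count that fell to 31 of 76 with median-of-ratios scaling. The host had 11.6 and 10.9 CPM in CG and LAC. IMMP2L, a mitochondrial inner membrane peptidase, held 62 with medians of 1.11, 1.76 and 0.98 FPKM. It too had none past the size rule between LAC and CG. Of the 62, 31 reached a coverage of 8 in LAC alone, and over the 15 that reached it in HAC the median difference was 0.21, or -0.02 after scaling.

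RALYL, an RNA-binding protein of the RALY family, held 34, of which 14 were on its strand and 20 on the opposite one, covering 39.2% of its span. At 1454 CPM in CG and 1541 in LAC it was the most expressed of the 10 genes with the most intronic transcripts. The medians were 2.24, 3.42 and 2.90 FPKM, but the median difference per transcript between LAC and CG was 0.13, or -0.10 after scaling. Over the 22 that reached a coverage of 8 in HAC it was 0.18, and after scaling -0.19 with 5 of 22 above 0. MACROD2, an ADP-ribose hydrolase, held 33 (1.26, 1.6 and 1.04 FPKM) in the longest span of the 10, 2171751 bases. CAMKMT, which methylates calmodulin, held 32 (1.00, 1.71 and 1.18), and EBF1, a transcription factor, 27 (1.11, 1.65 and 1.14). LOC108178250 held 22 (1.1, 1.71 and 1.18). In these last 4 the median difference between LAC and CG lay between 0.30 and 0.49, and over the transcripts that reached a coverage of 8 in HAC it lay between 0.16 and 0.37, or between -0.10 and 0.11 after scaling.

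AUTS2, a regulator of transcription, held 29 with medians of 2.01, 3.47 and 2.71 FPKM, and 23 of the 24 that reached a coverage of 8 in HAC were higher in LAC than in CG, 20 of them also after scaling. The host went from 168 to 273 CPM. Of the 29, 1 shares AUTS2's own locus in the table and adds to its count. In all, 16 intronic transcripts share a locus with their host. ZBTB20, a zinc-finger repressor, held 26 with medians of 2.67, 4.08 and 2.56 FPKM at 596 and 753 CPM of the host. MAGI1, a scaffold of cell junctions, held 23 with medians of 3.39, 4.2 and 3.03, at 213 and 136 CPM of the host. Its 19 transcripts above 0 became 5 after scaling.

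Of the 60 hosts with 10 or more intronic transcripts, 7 had a median LAC minus CG difference of at least 1: PCDH7, TSGA10, PRKG1, ROBO1, RGS7, NAALADL2 and TASP1. They were named after their values were seen. Of the 60, 59 had a median above 0, with a range of -0.07 to 1.49. After median-of-ratios scaling 45 were above 0 and 15 below, and 1 (PCDH7, 1.18) stayed at 1 or more. In HAC against CG none of the 60 reached 1, 37 medians were above 0 and 22 below.

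PCDH7 and ROBO1 had a median of at least 1 over the 10 and 17 transcripts chosen through HAC, though after scaling these medians were 0.94 and 0.76. Most transcripts of the other 5 were in the table through LAC alone, and at most 3 of each reached the coverage in HAC. The single such transcript of RGS7 differed by 1.29 and that of TASP1 by 1.26. The 3 of TSGA10 had a median of 0.43 with 2 above 0, and the 2 of NAALADL2 a median of -0.20 with 0 above 0. PRKG1 is the cGMP-dependent protein kinase I. Its 11 intronic transcripts had medians of 0.38, 1.76 and 0.33 FPKM, and all 11 reached a coverage of 8 in LAC alone. In RGS7, a regulator of G protein signalling, 19 of 20 did (0.36, 1.84 and 0.57 FPKM), in TASP1, a protease, 9 of 10 (0.30, 1.70 and 0.52), in NAALADL2 10 of 14 (0.41, 1.81 and 0.40) and in TSGA10 8 of 11 (0.48, 2.59 and 0.52). The counts of the host genes do not pass through that floor, but these hosts were chosen by intronic values that do. PRKG1 had 3.26 CPM in CG and 9.87 in LAC, and RGS7 had 4.82 and 19.6. TSGA10 had 7.59 and 23.7 CPM, NAALADL2 9.81 and 15.0, and TASP1 19.8 and 18.5.

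PCDH7, a protocadherin of cell adhesion, held 11 intronic transcripts, all with a listed strand (3 same, 8 opposite). Their medians were 0.94 FPKM in CG (0.29 to 1.48), 3.81 in LAC (1.19 to 6.54) and 2.00 in HAC (0.97 to 2.81). Every one of the 11 was lowest in CG and 10 of 11 were highest in LAC, an order favoured by the choice of PCDH7 through its LAC minus CG values. Over the 10 that reached a coverage of 8 in HAC the median difference was 1.25, or 0.94 after scaling, with 10 of 10 above 0 under both. The longest, MSTRG.1894.1 (8504 bases, same strand), had 0.96, 5.00 and 2.02 FPKM, and MSTRG.1892.1 on the opposite strand had 0.85, 4.92 and 2.01. Transcripts of both strands thus showed like values, and PCDH7 itself went from 103 to 284 CPM.

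ROBO1, a receptor for SLIT ligands, held 20 with medians of 1.66, 4.47 and 3.18 FPKM in the order CG, LAC, HAC. Over the 17 that reached a coverage of 8 in HAC, all 17 were above 0 in LAC against CG (median 1.11, or 0.76 after scaling with 17 of 17). Over the 19 that reached it in LAC, all 19 were above 0 in HAC against CG (median 0.73, or 0.70 after scaling). ROBO1 was named for its LAC minus CG values, which use the same CG library, so low CG values favour both differences. MSTRG.14249.1 (5290 bases, same strand) had 3.03, 9.88 and 5.06 FPKM and MSTRG.14248.1 (opposite strand) 2.63, 7.56 and 4.39. The exception among the 20 was MSTRG.14261.1, at 0.36, 0.05 and 0 FPKM. ROBO1 went from 123 to 229 CPM, a count to which 1 of the 20 adds.

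ERBB4, a receptor tyrosine kinase for neuregulins, held 16. Its host level was 1024 CPM in CG and 2032 in LAC. All 12 intronic transcripts that reached a coverage of 8 in HAC were higher in LAC than in CG, by a median of 1.04, or 0.62 after scaling with 12 of 12. MSTRG.7408.1 (9179 bases, same strand) had 9.03, 19.7 and 9.85 FPKM, and MSTRG.7407.1 (9733 bases, opposite strand) 6.77, 16.3 and 7.20. CG and HAC were close in these and LAC stood above both. BNC2, a zinc-finger protein, held 14, all of which reached a coverage of 8 in HAC. They had medians of 2.72, 6.68 and 2.63 FPKM, and LAC was above CG for 14 of 14, or 13 of 14 after scaling. MSTRG.379.1 (16825 bases) had 3.13, 7.92 and 2.70 FPKM, at a host level of 180 and 334 CPM. ERBB4 and BNC2 were likewise chosen after their values were seen.

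**Figure D4:**
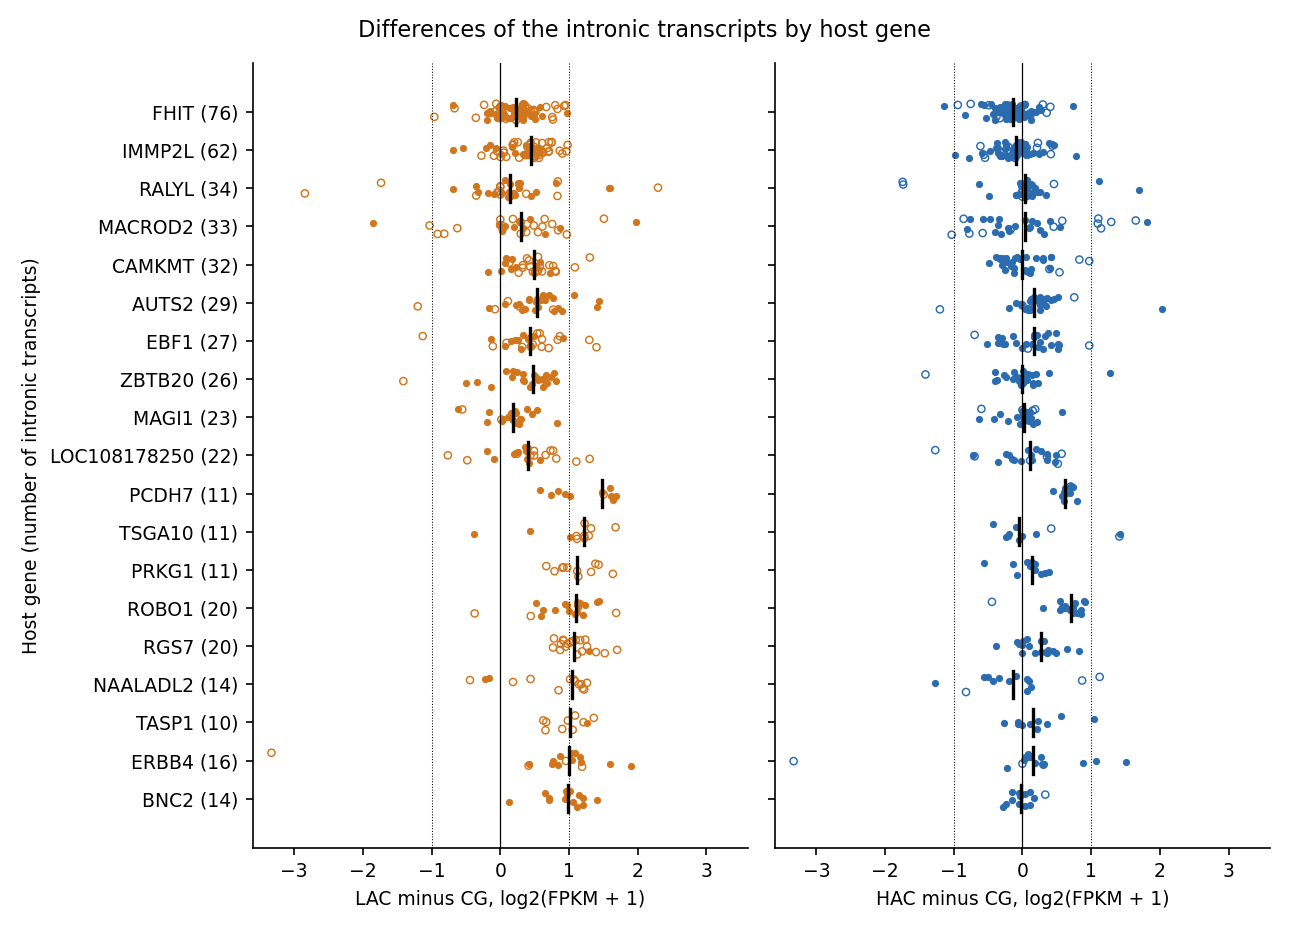
Difference in log2(FPKM + 1) of each intronic transcript (points) from CG, in LAC (left x axis) and HAC (right x axis), for 19 host genes (y axis, number of transcripts in brackets). Filled points reached a coverage of 8 in the library outside the comparison, open points did not, the black bar is the median and dotted lines mark 1 and -1. PRKG1 has open points alone on the left, while PCDH7, ROBO1, ERBB4 and BNC2 have mostly filled points above 0.

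The LAC minus CG difference of the host gene went with that of its intronic transcripts. The rank correlation was higher over hosts with many transcripts. Over 3264 transcripts in 1335 hosts with at least 0.5 CPM, Spearman's rho between the 2 differences of LAC and CG was 0.25, and over the 1810 that reached a coverage of 8 in HAC it was 0.36. These are descriptions over transcripts that share a library pair and often a host. By strand, rho was 0.34 on the host's strand, 0.33 on the opposite strand and 0.21 without a strand. For medians per host it was 0.22 over all 1335 hosts, 0.40 over 140 with 5 or more transcripts and 0.69 over 51 with 10 or more. Over transcripts that reached a coverage of 8 in HAC the last 2 were 0.55 over 84 hosts and 0.92 over 21.

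Of all 3264 transcripts with such a host, 14.6% were higher and 4.44% lower in LAC. Where the host was higher in LAC by 1 or more, 69 of 123 intronic transcripts (56.1%) were higher and 1 was lower, with a median difference of 1.05. Where the host was lower by 1 or more, 36 of 159 (22.6%) were lower and 22 (13.8%) higher, with a median of 0.14, so the higher share there was near that of all. The transcripts that reached a coverage of 8 in HAC gave 15 of 44 (34.1%) higher and 1 lower with higher hosts, and 24 of 76 (31.6%) lower and 3 higher with lower hosts, with medians of 0.84 and -0.45. All 1810 chosen that way had 8.07% higher and 4.14% lower. Of the 147 hosts with 5 or more intronic transcripts, 87 had both differences above 0, 7 had both below 0, 52 had a lower host with a median above 0 and 1 the reverse. These groups use FPKM as deposited and were not counted after median-of-ratios scaling, where 36 of the 147 intronic medians were below 0, against 8 as deposited. Within hosts the differences had a pooled SD of 0.47, against 0.55 over all 1486 transcripts of the 140 hosts compared.

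**Figure D5:**
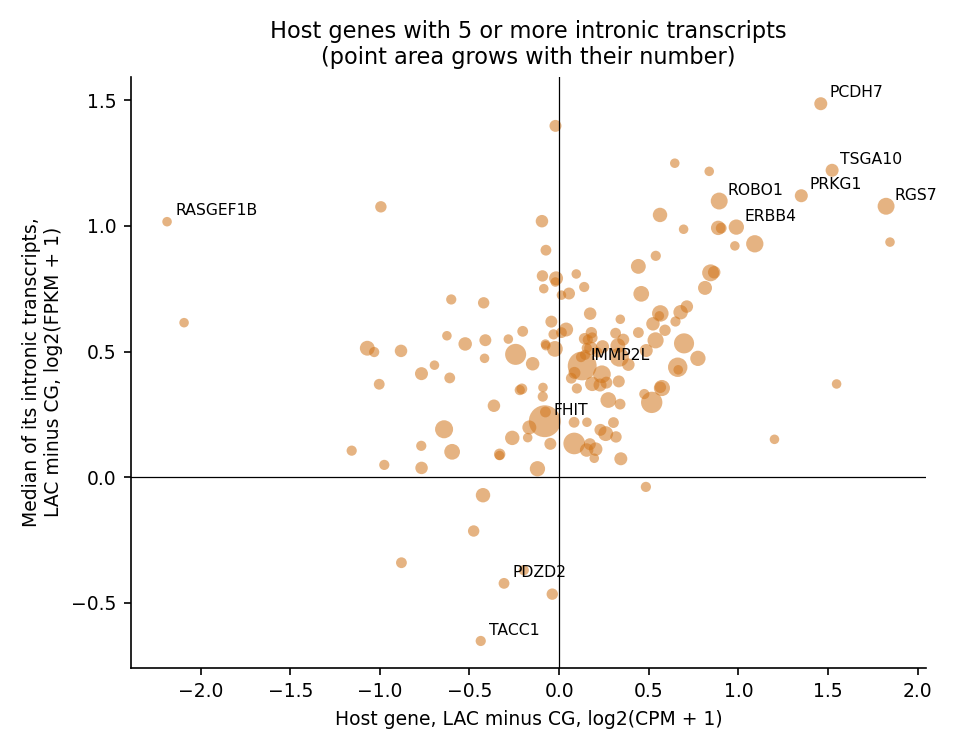
Median LAC minus CG difference of the intronic transcripts of a host in log2(FPKM + 1) (y axis) against the difference of the host gene in log2(CPM + 1) (x axis), for the 147 hosts with 5 or more intronic transcripts; point area grows with their number. FPKM is as deposited, without median-of-ratios scaling. PCDH7, TSGA10, PRKG1 and RGS7 lie at the upper right, RASGEF1B at the upper left, and 87 hosts are above 0 on both axes.

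Some hosts departed from this. RASGEF1B, an exchange factor for Ras-like proteins, went from 66.7 to 13.9 CPM while its 5 intronic transcripts were all above 0, with medians of 0.30, 1.66 and 0.52 FPKM, 3 of them present through LAC alone. The row TSHZ2;LOC108178877 held 9 transcripts with medians of 4.15, 11.5 and 5.54 FPKM, all of which reached a coverage of 8 in HAC. LAC was above CG in 9 of 9, or 7 of 9 after scaling, while the row itself had 155 and 153 CPM. Of the 147 hosts with 5 or more intronic transcripts 8 had a median below 0 as deposited, and 36 had after median-of-ratios scaling. TACC1, a centrosomal coiled-coil protein, held 6 with medians of 1.42, 0.50 and 0.99 FPKM, and PDZD2 7 with 2.26, 1.21 and 2.66. Their hosts went from 62.2 to 45.7 CPM and from 159 to 128. TACC1 and PDZD2 were thus lower in LAC along with their intronic medians and are no departure from the relation.

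Length and strand went with the LAC against CG counts over the whole class. Once the transcripts were chosen through HAC, the higher shares differed less between the length and strand groups and the lower shares differed more between the length groups. Over the class, 28.1% of transcripts under 300 bases, 23.8% of those from 300 and 14.2% of those from 500 bases were higher in LAC, against 6.32% from 1000, 6.93% from 2000 and 10.2% from 5000 bases up, each group ending where the next begins. Chosen through HAC, the shares were 12%, 12.3%, 5.97%, 5.51%, 6.19% and 10.0%. The lower shares over the class went from 9.95% under 300 bases to 1.78% at 5000 bases or more, and through HAC from 10.5% and 14.8% in the 2 shortest groups to 0.286% in the longest. As deposited, transcripts of 5000 bases or more thus had 35 higher and 1 lower of 350, with a median of 0.46. The length and strand groups were not counted after median-of-ratios scaling, which turned the excess of higher calls over all intronic transcripts chosen through HAC. Without a strand 18.5% were higher over the class, against 8.47% on the opposite and 10.8% on the host's strand, and chosen through HAC these were 8.00%, 7.53% and 9.55%.

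Gene lists by role gave the following hosts, and their LAC against CG counts stand beside 15.0% higher and 5.52% lower of all intronic transcripts compared and 13.6% and 12.4% of all long non-coding ones. Through HAC the intronic shares were 8.08% and 5.53%, against 6.91% and 14.8%. Chromatin and transcription regulators, with 49 of 51 genes in the gene table, had 26 hosts with 103 intronic transcripts, of which 11 of 101 compared (10.9%) were higher and 4 (3.96%) lower in LAC than in CG (median 0.49). Of the 83 that reached a coverage of 8 in HAC, 8 (9.64%) were higher and none lower. The higher shares lay near or under those of the class. Cell adhesion and neuronal-type long genes had 35 hosts of 50 with 374 transcripts, with 45 of 351 compared (12.8%) higher and 10 (2.85%) lower (median 0.42). Through HAC 25 of 175 (14.3%) were higher and 3 (1.71%) lower. Of these 25, 10 were in ROBO1, 7 in ERBB4 and 3 in AUTS2, so the share rests on a few hosts. FHIT (37 chosen through HAC), MAGI1 (21) and IMMP2L (15) had none higher. The genes of this list had a median span of 928667 bases. Cyclic nucleotide and calcium signalling had 13 hosts of 26 with 32 transcripts, with 9 of 30 compared (30.0%) higher and 3 (10.0%) lower and a median of 0.78. Of these only 10 reached the coverage in HAC, with none higher, 2 lower and a median of 0.08. In ADCY9, an adenylyl cyclase, MSTRG.22888.1 had 3.16, 0.23 and 3.46 FPKM, from about 31, 2 and 32 reads. PRKG1's MSTRG.17418.1 had 0.05, 2.27 and 0.16, from at most 19 reads.

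The granulosa and cumulus list had 5 hosts of 27 with 19 transcripts, of which 2 of 18 compared (11.1%) were higher in LAC and none lower. Of the 15 that reached a coverage of 8 in HAC none was higher or lower. Both higher transcripts were in PAPPA, a protease that frees insulin-like growth factors from their binding proteins. MSTRG.20147.1 had 0.30, 2.34 and 0.35 FPKM and MSTRG.20146.1 0.22, 1.61 and 0.17, both on the opposite strand, and PAPPA went from 65.2 to 160 CPM. BMPR1B, a type I receptor of granulosa cells for oocyte BMP15, held 10 with medians of 2.04, 3.28 and 2.10 FPKM. LAC was above CG in 10 of 10, or 9 of 10 after scaling, none past the size rule, and the host went from 77.2 to 101 CPM. NR5A2, an orphan nuclear receptor of granulosa cells, held 2 with medians of 6.42, 10.5 and 7.04 FPKM at 669 and 579 CPM. Not one transcript in this list was past the size rule between HAC and CG.

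In TGF-beta and BMP signalling, 4 hosts of 23 held 21 transcripts, of which 1 of 19 compared (5.26%) was higher in LAC and none lower, or 1 of 15 through HAC. In SMAD3, which carries activin and TGF-beta signals to the nucleus, MSTRG.16165.1 had 0.17, 3.46 and 3.75 FPKM and MSTRG.16164.1 1.07, 3.03 and 1.70. CG was the lowest library for both, and SMAD3 had 206 and 193 CPM. Extracellular matrix genes had 8 hosts of 40 with 11 transcripts, 2 higher and 1 lower of 10 compared, or 1 and 0 of 4 through HAC, too few to set beside the background. COL4A3, a collagen IV chain, held 4 with medians of 0.98, 1.32 and 0.61 FPKM, and LAMA3, a laminin chain, held MSTRG.9154.1 at 1.38, 0 and 0.64.

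Insulin and PI3K signalling had 5 hosts of 17 with 11 transcripts, 1 of 10 compared (10.0%) higher and none lower, or 1 of 9 through HAC, near the background. MSTRG.7502.1 in IRS1, the docking protein of the insulin receptor, had 2.14, 5.32 and 2.10 FPKM. IGF1R held 3 with medians of 1.72, 3.19 and 1.85 FPKM. Steroid and cholesterol genes had 3 hosts of 18 with 5 transcripts, none past the size rule. MSTRG.11546.1 in ESR1, oestrogen receptor alpha, had 1.38, 2.71 and 1.23 FPKM, highest in LAC. Of the 21 genes of ammonia and glutamine metabolism 1 was a host: SLC1A5, a glutamine transporter, whose MSTRG.23710.1 (235 bases) had 1.23, 0.78 and 1.83 FPKM from about 12, 7 and 18 reads. In the cell cycle list (2 hosts of 24), MSTRG.7840.1 in CCND2, cyclin D2, had 5.30, 8.82 and 4.40 FPKM and MSTRG.9678.1 in CDK14 had 2.10, 1.35 and 2.16. The smooth muscle list (2 hosts of 10) held MYLK and RGS5, whose MSTRG.11891.1 had 0.38, 0 and 1.5 FPKM.

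None of the 28 oocyte genes in the gene table was a host, against 7.27% of all coding genes and 4.11% of those from 10 to 50 kb. These genes are short, with a median span of 12134.5 bases and the longest, DDX4, at 108120 bases, and 2 of them spanned 50 kb or more. The intronic transcripts therefore include none in a gene of the oocyte list, whose 6 marker genes were lower in LAC. No gene of the endothelial (9), macrophage and monocyte (9), lymphocyte (7), fibroblast (9) or theca (4) lists was a host either.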

How the data were processed

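The rRNA-depleted libraries of rabbit cumulus-oocyte complexes (CG, LAC, HAC; 1 each) were read from 3 deposited files. Per the submitters' processing notes, fastp and HISAT2 were used with OryCun2.0 (versions not given). Per the file headers, the authors gave FPKM per long non-coding transcript and a coverage signal (mean read depth). The authors' gene section gave estimated counts and FPKM. The counts were scaled to CPM with TMM factors (1.01 for CG, 0.991 for LAC) for host genes. Of 12 columns of per-sample values, 2 were not used: the gene columns of the HAC file, which repeat those of LAC. In CG, where it was checked, the deposited count equalled coverage times length divided by 75 within 1% or 2 counts for 96.1% of loci with 1 transcript, so 1 count was taken as about 0.5 reads of 150 bases. Reads behind a transcript were taken as coverage times length divided by 150.

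Differences are of log2(FPKM + 1), with a pseudocount of 1. Median-of-ratios factors over 10841 transcripts (0.896 for CG, 1.22 for LAC, 0.940 for HAC) gave a second scale. A host is the shortest RefSeq gene whose span contains the transcript. Of 247 unnamed LOC hosts, 31 had a symbol in mOryCun1.1. Named were the 10 transcripts with the highest mean, the 5 largest differences per comparison and direction with at least 5 FPKM, the 10 hosts with most transcripts and, per list, up to 2 hosts and 2 transcripts. The members and the 17 gene lists were chosen with earlier results of these data known. The size rule and scaling were run on simulated data, and no result of that run is used here. How the size rule and the factors behave under the coverage floor was not tested. Alternatives were other pseudocounts, minimum levels, size rules, scales, subsets and hosts. No sequence is printed, since no genome of this build was used here. Python 3.11.15, pandas 2.3.3, NumPy 2.4.6, SciPy 1.17.1 and matplotlib 3.10.9 were used.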

Additional observations from a re-analysis of the deposited data

How the results depend on the processing

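The 528 higher and 194 lower transcripts (LAC against CG), 197 and 140 (HAC against CG) and 249 and 464 (HAC against LAC) moved as follows, in that order. With a pseudocount of 0.1 they were 1150 and 334, 481 and 329, and 429 and 1082. With a pseudocount of 5 they were 19 and 28, 7 and 19, and 15 and 12. With at least 5 FPKM they were 82 and 38, 17 and 34, and 25 and 60. With a size rule of 2 they were 9 and 28, 11 and 11, and 17 and 8. With median-of-ratios factors they were 251 and 275, 200 and 167, and 320 and 247. With coverage scaled to 1 total they were 159 and 273, 110 and 173, and 233 and 182. With 2 or more exons they were 70 and 42, 38 and 18, and 69 and 44. With a strand they were 130 and 76, 51 and 40, and 102 and 94. Without transcripts under 300 bases (added after seeing the data) they were 347 and 130, 104 and 87, and 166 and 280. With a coverage of 8 or more in the library outside the comparison (added likewise) they were 155 and 106, 55 and 55, and 114 and 121. With both that and median-of-ratios factors they were 52 and 149, 54 and 65, and 141 and 44. CG, LAC and HAC were the highest library in 17.7%, 57.4% and 24.9%, and with median-of-ratios factors in 28.9%, 36.6% and 34.5%, and with a range of 2 in 45.8%, 23.7% and 30.5%, and with a pseudocount of 0.1 in 15.6%, 62.8% and 21.7%. Subsets hold fewer transcripts and stricter rules call fewer, so those counts fall by construction, while the cause of the shift with scale was not tested. Spearman's rho with the host's difference was 0.25, 0.42 with at least 5 FPKM and 0.36 over transcripts with a coverage of 8 or more in HAC, and between 0.23 and 0.25 in its 5 other settings. The median difference kept its sign in LAC against CG and HAC against LAC under every setting run. With the coverage choice and median-of-ratios factors together it shrank from 0.46 to 0.05 and from -0.38 to -0.02. In HAC against CG it went from 0.09 to -0.10 with coverage scaled to 1 total. With no minimum level, per locus and without overlapping entries, every count stayed within 1.5 times. No paired analysis was possible because each group has 1 library, and for the same reason no library could be left out. Depth limits the class: the median transcript rested on about 44.7 reads in CG, 59.3 in LAC and 47.2 in HAC.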
